A study of Homo sapiens with 16 samples.

Results

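The comparison described here is MOLT4 cells given ACBI-1 for 3 h against MOLT4 cells given DMSO for 3 h, with 2 ATAC-seq libraries in each arm. Peaks of the 4 libraries on chromosomes 1 to 22 and X that overlapped by 1 base or more were joined, which gave 57529 regions, against 131357 when all 16 libraries of the series were joined in the same way. Regions present in both DMSO lists and neither ACBI-1 list are called lost, those present in both ACBI-1 lists and neither DMSO list gained, and those present in all 4 lists kept. Of the 57529 regions, 7847 were lost, 350 were gained and 21392 were kept. These words describe which peak lists held a region, and the classes were set by the lists themselves, so no test was made of their sizes.

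MOLT4 is an established human T-cell acute lymphoblastic leukaemia line, and the series holds a second such line, DND41. Cells of each line received DMSO, the solvent, or ACBI-1 at 100 nM, and were taken at 3 h or 24 h, which made 8 groups of 2 libraries. The line of each library was taken from its title; the cell line field names the other line in 8 of the 16 samples, but in 0 of the 4 libraries compared here. Whether both libraries of a group are separate cultures is not told by the labels, and a p-value here covers only the variation between libraries, possibly technical.

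SWI/SNF, also called BAF, is a family of chromatin remodelling complexes that use ATP to slide or evict nucleosomes. The ATPase is either SMARCA2 or SMARCA4, and PBRM1 belongs to the PBAF form of the complex. ACBI-1 is a PROTAC, a molecule that brings a target protein to an E3 ubiquitin ligase so that the proteasome destroys it, and its targets are SMARCA2, SMARCA4 and PBRM1. In many cell types enhancers depend on continued SWI/SNF activity more than promoters do. In ATAC-seq the Tn5 transposase cuts accessible DNA, and a peak is a stretch where a caller found more cuts than in its surroundings. The peak lists used here give positions only, so accessibility was read from the presence of a peak and from its width, and read depth is unknown. A region without a peak may still be accessible below the detection limit of that library. Coordinates are hg19, counted from 1.

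The ACBI-1 libraries held fewer peaks than the DMSO libraries. DMSO replicates 1 and 2 held 45098 and 42051 peaks, and ACBI-1 replicates 1 and 2 held 29478 and 30800. The arms did not overlap. The means were 43574 ± 2155 (SD, n = 2) and 30139 ± 935 (SD, n = 2), a log2 ratio of -0.53 or -30.8%. The exact permutation test gave p = 0.333, the smallest p that this test can give with 2 libraries against 2, so it could not pass 0.05 for any measure within these 4 libraries. The peaks covered 18261 and 18004 kb of the genome in the DMSO libraries and 12530 and 14092 kb in the ACBI-1 libraries, a log2 ratio of -0.45 (exact permutation p = 0.333).

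Over whole lists, peaks were somewhat wider with ACBI-1. The median peak width was 318 and 341 bp in the DMSO libraries and 347 and 377 bp in the ACBI-1 libraries, a log2 ratio of 0.14 (exact permutation p = 0.333). This order turned when the lists were cut to the same length: among the 29478 widest peaks of each list the log2 ratio was -0.30 (exact permutation p = 0.333). The cut took out the narrowest peaks, and more of them from the longer DMSO lists. A rise of the DMSO medians relative to ACBI-1 was thus built into it. Within kept regions, where the same sites are compared, the median width was 540 and 552 bp with DMSO and 460 and 509 bp with ACBI-1.

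Kept regions made up 37.2% of all regions, lost regions 13.6% and gained regions 0.608%. Of the 35020 regions in both DMSO libraries, 61.1% were kept, 16.5% had a peak in 1 ACBI-1 library and 22.4% were lost. Those with a peak in 1 ACBI-1 library numbered 5781, of which 3482 had it in replicate 2 and 2299 in replicate 1. Of the 22458 regions in both ACBI-1 libraries, 1.56% were gained. A further 18938 regions had a peak in 1 library only, 12838 of them in a DMSO library and 6100 in an ACBI-1 library.

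The counts of lost and gained regions depended on the lengths of the lists. With the 29478 widest peaks of each list, 2206 regions were lost, which was 9.12% of those in both DMSO libraries, and 1214 were gained, which was 5.50% of those in both ACBI-1 libraries. Lost regions stayed the more numerous class, but by a far smaller margin. Read totals were not analysed here, and their part in the list lengths was not tested.

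Replicates of the same arm also differed. Of the regions of DMSO replicate 1, 21.3% had no peak in DMSO replicate 2, and the reverse share was 15.8%. Of the regions of ACBI-1 replicate 1, 22.4% had no peak in ACBI-1 replicate 2, and the reverse share was 26.0%. Between the arms the shares were larger in 1 direction: 37.8% to 44.6% of a DMSO library's regions had no peak in an ACBI-1 library. In the other direction, 14.2% to 15.2% of an ACBI-1 library's regions had no peak in a DMSO library, which lay below each of the replicate shares. When an arm was represented by 1 library, the number of lost regions was 13090 without DMSO replicate 1, 15736 without DMSO replicate 2, 10154 without ACBI-1 replicate 1 and 11347 without ACBI-1 replicate 2. The number of gained regions was then 709 without either DMSO library in turn, 3350 without ACBI-1 replicate 1 and 3496 without ACBI-1 replicate 2.

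**Figure D1:**
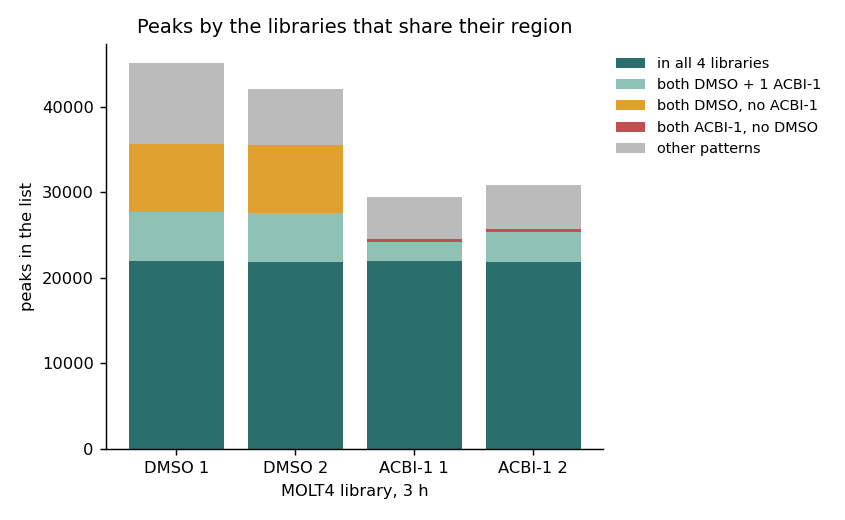
Number of peaks in each of the 4 MOLT4 libraries of 3 h (vertical axis), divided by which libraries share the peak's region. Kept regions fill 21802 to 21910 peaks in each library, which their definition nearly fixes, and lost regions 7869 and 7858 peaks of the DMSO lists.

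Kept regions held 48.6% and 51.8% of the peaks of the DMSO lists and 74.3% and 70.8% of the peaks of the ACBI-1 lists. Lost regions held 17.4% and 18.7% of the DMSO peaks but only 10.7% and 11% of the bases that DMSO peaks covered. Lost regions were narrow. Their DMSO peaks had a median width of 230 bp, with the middle 50% of regions between 186 and 294 bp and a maximum of 890 bp. Kept regions had a median DMSO width of 544 bp, regions kept in 1 ACBI-1 library 289 bp, and gained regions a median ACBI-1 width of 246 bp.

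The share of regions that were lost declined with DMSO peak width in every step. The regions in both DMSO libraries were put in 10 width classes of nearly equal number. In the narrowest class, 134 to 194 bp, 67.0% were lost, and the next classes lost 52.8%, 40.0%, 29.1% and 18.9%. The classes from 394 bp upward lost 9.94%, 4.52%, 1.34%, 0.229% and 0.0571%, the last being 2 of 3500 regions of 851 bp or more. Each ACBI-1 library showed the same order on its own: ACBI-1 replicate 1 had a peak at 20.5% of the narrowest and 99.7% of the broadest regions, and replicate 2 at 23.3% and 99.9%. In 3 width classes the lost shares were 51.2%, 15.3% and 0.738%, a difference of 50.4 percentage points between narrow and broad, which was 21.9 points with lists of equal length.

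These widths come from the libraries that define the base of the shares. The width was therefore also taken from the MOLT4 DMSO libraries of 24 h, over the 27359 regions with a peak in both of those. The lost share then declined from 40.7% in the narrowest of 10 classes to 26.8%, 19.4%, 12.4%, 7.64% and 4.17% in the next 5, and lay between 1.03% and 1.67% in the 4 broadest. Between 3 width classes the difference was 26.2 percentage points. Regions that the 24 h DMSO libraries both lacked were lost far more often, at 71.4% of 3334, against 11.7% of the 27359 that both held.

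**Figure D2:**
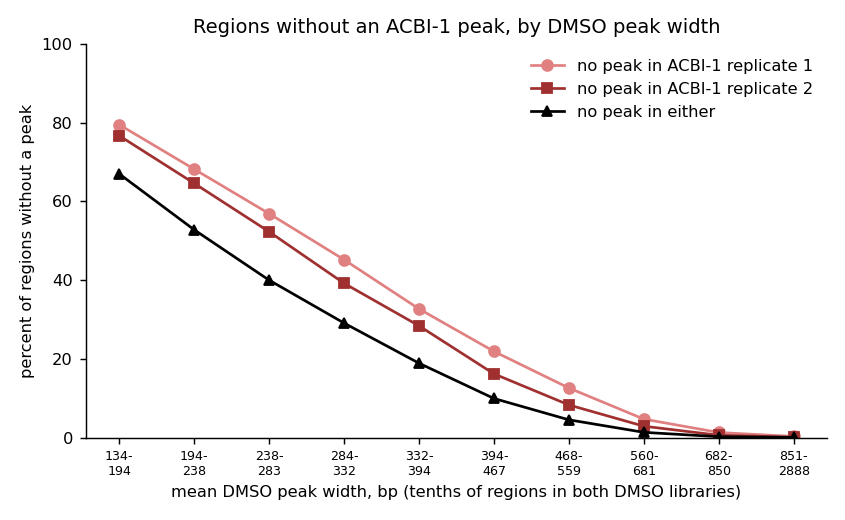
Percent of the 35020 regions in both DMSO libraries that had no peak in ACBI-1 replicate 1, in replicate 2, or in either (vertical axis), in 10 classes of mean DMSO peak width in bp (horizontal axis). All 3 lines decline from class to class, and the lost share goes from 67.0% to 0.0571%.

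The lost regions with the broadest DMSO peaks show what a complete loss of a peak call looked like. The rule named 10 of them, with mean DMSO widths of 676.0 to 890.0 bp. The first, chr9:135036321-135037288, had peaks of 968 and 812 bp in the DMSO libraries and none in the ACBI-1 libraries. At 24 h it again had peaks of 715 and 928 bp with DMSO and none with ACBI-1 in MOLT4, and in DND41 it had a peak in 3 of 4 DMSO and 0 of 4 ACBI-1 libraries. The region at chr9:116457610-116458340 had DMSO peaks of 705 and 731 bp at 3 h and of 474 and 440 bp at 24 h in MOLT4, and no peak in any MOLT4 ACBI-1 or any DND41 library.

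Other broad lost regions did not keep that pattern at 24 h. The region at chr3:184870314-184871509, with DMSO peaks of 1029 and 752 bp at 3 h, had ACBI-1 peaks of 508 and 523 bp at 24 h in MOLT4, and no DND41 library had a peak there. The region at chrX:132548785-132550015, with 760 and 883 bp at 3 h, had a peak in all 12 other libraries, ACBI-1 included. Over the 10 regions, the MOLT4 DMSO libraries of 24 h held 20 of 20 possible peaks and the MOLT4 ACBI-1 libraries of 24 h held 5. The DND41 libraries held 23 peaks there with DMSO and 8 with ACBI-1, of 40 possible in each arm.

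**Figure D3:**
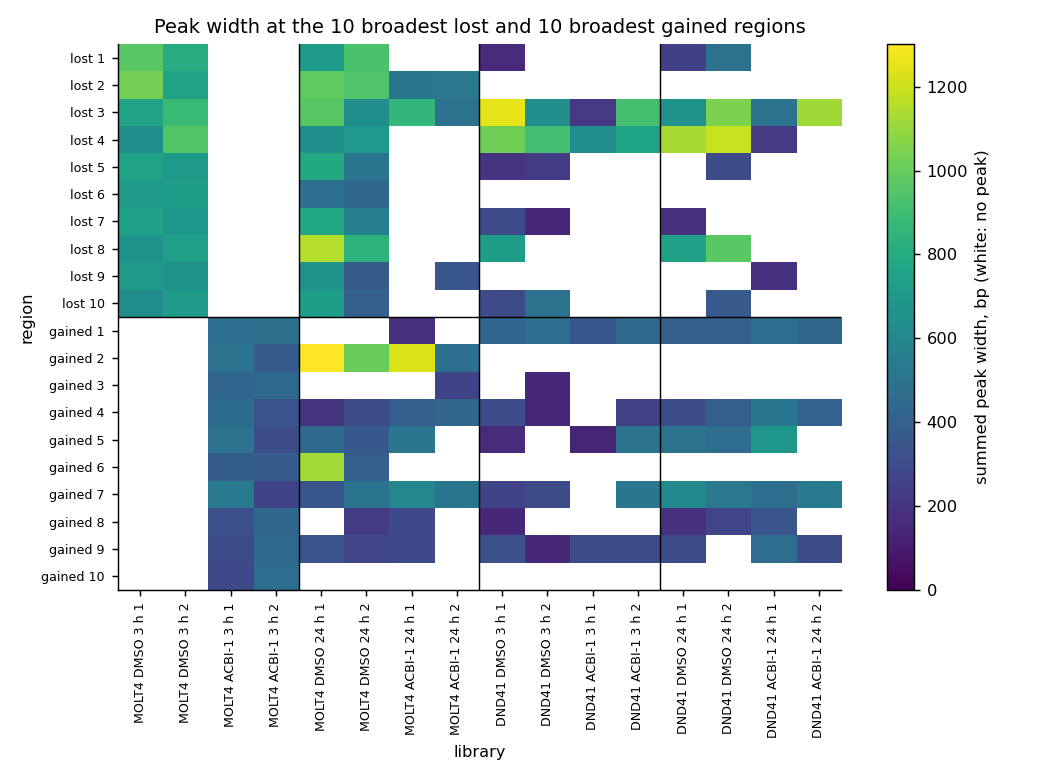
Summed peak width in bp (colour; white is no peak) at the 10 broadest lost and the 10 broadest gained regions (rows) in all 16 libraries (columns; vertical lines divide the lines and times). The lost rows are mostly white in the ACBI-1 columns of MOLT4 at 24 h, where 5 of 20 squares are filled, while the gained rows there hold 13 with DMSO and 11 with ACBI-1.

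Some regions lay near the edge of the rule. The 3 lost regions nearest to an ACBI-1 peak lay 0, 1 and 2 bp from it without sharing a base. For kept regions, the overlap was taken as the most bases that any DMSO and ACBI-1 peak of the region shared. Its 3 smallest values were 69, 76 and 80 bp, and other pairs of peaks in those regions may share fewer. Near misses among lost regions were few: the median distance from a lost region to the nearest ACBI-1 peak was 19486 bp, and 303 of 7847 lost regions (3.86%) had an ACBI-1 peak within 500 bp.

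Most lost regions had no other lost region close by. Joined across gaps of up to 0.5 times 25 kb, 7093 of them (90.4%) stayed single, 337 pairs and 24 groups of 3 were formed, and 2 groups held 4. This share was not set against that of other classes. Of the 7847 lost regions, 3950 had no region of any class within that distance between midpoints. The same held for 17038 of the 35020 regions in both DMSO libraries. Lost regions were thus not shown to be more isolated than others. The group at chr10:22013693-22035284 held 4 lost regions and no other region, so that each DMSO library had 4 peak regions and each ACBI-1 library 0. The group at chr21:45758398-45775553 held 4 lost regions and 1 kept region. In the MOLT4 libraries of 24 h, the lost regions of these groups held 4 and 5 peaks with DMSO and 0 and 1 with ACBI-1, of 8 possible. Three-member groups were compact in places, such as chr20:30190777-30196579, with 3 lost regions and 1 kept region within 5803 bp, and chr6:37527871-37534380, with 3 lost regions and no other region within 6510 bp. The number of groups of at least 3 depended on the joining distance, with 26 at the gap used, 3 at 5 kb and 88 at 25 kb.

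The lost share changed little with the number of other regions within the same distance: it was 23.2% with none, 22.1% with 1, 20.4% with 2, 22.4% with 3 and 21.2% with 4 or more. Regions with many neighbours were narrower, with a median DMSO width of 342 bp against 410 bp with none. Their width classes alone would give 27.2% lost against 21.5%.

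Chromosomes differed in the share of regions lost. It was highest on chromosomes 18 (28.0%), 21 (26.7%) and 13 (26.4%) and lowest on chromosomes 19 (8.71%), 16 (15.3%) and 17 (15.3%), against 22.4% over all. Much of this went with peak width. The mix of width classes alone would give 25.9%, 24.5% and 24.5% on chromosomes 18, 21 and 13. On chromosomes 16 and 17 it would give 17.5% and 17.8%. On chromosome 19, 99 of 1137 regions were lost, and ACBI-1 replicates 1 and 2 lacked 14.0% and 13.1% of them, respectively, against 32.4% and 29.0% over all chromosomes. Chromosome 19 regions had a median DMSO width of 498 bp, against 394 bp over all, and its mix of width classes would give 14.8%. Kept regions on chromosome 19 were also narrowed least often, 27.4% against 37.3%. With lists of equal length the difference between chromosome 19 and the whole was -6.11 percentage points, against -13.7 with the full lists.

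Kept regions were narrower with ACBI-1. The median log2 ratio of ACBI-1 to DMSO width over the 21392 regions was -0.13, or -8.75%. In 7982 regions (37.3%) both ACBI-1 libraries had a narrower summed peak than both DMSO libraries, and in 1563 (7.31%) both had a wider one. The 4 ratios of 1 ACBI-1 to 1 DMSO library had medians of -0.18 and -0.20 for ACBI-1 replicate 1 and -0.06 and -0.08 for replicate 2. The 2 DMSO libraries differed by a median of 0.02 and the 2 ACBI-1 libraries by 0.10. All 4 ratios pointed the same way, but the shift of ACBI-1 replicate 2 was smaller than the difference between the ACBI-1 replicates. The median widths per library, 546 ± 8.49 bp with DMSO and 484 ± 34.6 bp under ACBI-1 (SD, n = 2 per arm), did not overlap (exact permutation p = 0.333). With lists of equal length the median log2 ratio was -0.14, and 39.4% of kept regions were narrower and 6.31% wider.

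**Figure D4:**
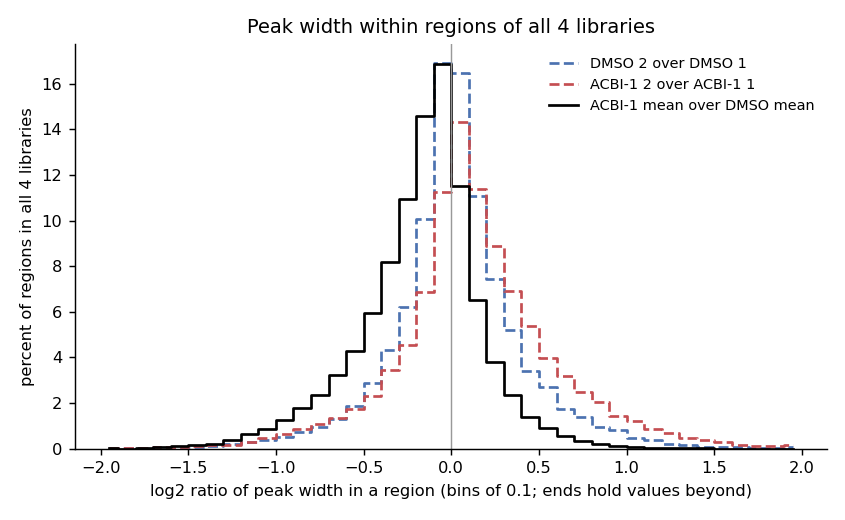
Distribution of the log2 ratio of summed peak width in the 21392 kept regions (horizontal axis; percent of regions on the vertical axis). The ratio of the ACBI-1 mean to the DMSO mean (solid) has its median at -0.13, against 0.02 for the ratio between the DMSO replicates and 0.10 for that between the ACBI-1 replicates (both dashed).

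The narrowing was mostly small and, taken over all such regions, favoured neither side of the peak. A fall in width of more than 2-fold was found in 547 kept regions (2.56%) and a rise of that size in 45 (0.210%). In the 20153 kept regions with 1 peak in each library, the left edge retreated by a median of 19 bp and the right edge by 18.5 bp. Both edges were drawn in at 44.7% of them, 1 edge at 44.6% and neither at 10.7%. Between single libraries, the midpoint differed by a median of 37.5 to 39.5 bp across arms, by 32 bp between the DMSO replicates and by 38.5 bp between the ACBI-1 replicates. Splitting of peaks was rare, with more peaks in both ACBI-1 libraries at 55 regions and fewer at 51.

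Narrowing was found across the range of widths. By the 24 h DMSO width of MOLT4, which does not use the libraries compared, the median log2 ratio lay between -0.10 and -0.21 in all 10 classes, and was -0.17 in the narrowest and -0.11 in the broadest. By the 3 h DMSO width, which enters the ratio itself, the narrowest class had a ratio of 0.06 and the other 9 lay between -0.12 and -0.22.

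The kept region with the largest fall was chr13:42031430-42032650, with widths of 781 and 1077 bp with DMSO and 147 and 226 bp with ACBI-1. The next, chr1:226411066-226411928, went from 768 and 691 bp to 172 and 169 bp. At 24 h this second region showed the same contrast in MOLT4, 759 and 629 bp with DMSO against 169 and 167 bp with ACBI-1, and no DND41 library had a peak there. The first did not, with 538 and 1197 bp against 746 and 891 bp at 24 h. The largest rise was at chr10:111611949-111612615, from 156 and 159 bp with DMSO to 518 and 628 bp with ACBI-1. At 24 h its MOLT4 widths were 770 and 290 bp with DMSO and 311 and 344 bp with ACBI-1, so the rise was not seen again.

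The comparison so far used the 4 libraries that set the classes. The other 12 libraries of the series, MOLT4 at 24 h and DND41 at 3 h and 24 h, took no part in choosing the regions and were used to test whether the classes behave alike elsewhere. The share of a class with a peak was compared between arms by an exact permutation test that exchanged labels only within a line and time. The smallest p it can give is 0.00926. Benjamini-Hochberg adjustment ran over 12 tests.

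Lost regions had fewer peaks with ACBI-1 in every line and time. In the DMSO libraries 44.6% ± 9.42 of them had a peak (SD, n = 6), and in the ACBI-1 libraries 13.3% ± 4.35 (SD, n = 6). In MOLT4 at 24 h the shares were 55.4% and 54.9% with DMSO and 12.2% and 9.15% with ACBI-1. In DND41 they were 48.2% and 37.3% against 15.4% and 21.1% at 3 h, and 36.8% and 35.0% against 11.4% and 10.6% at 24 h. No ACBI-1 library reached the lowest DMSO library. The difference was -31.3 percentage points (exact permutation p = 0.00926, adjusted p = 0.0111, lower in 12 of 12 pairs of libraries).

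ACBI-1 lists were shorter in those libraries too, so the lost regions were set against the kept ones in the same libraries. Kept regions had a peak in 87.4% ± 7.54 of cases with DMSO, and 75.6% ± 5.27 under ACBI-1 (SD, n = 6 per arm), a difference of -11.7 points (exact permutation p = 0.00926, adjusted p = 0.0111). The lost minus kept difference moved by -19.5 points from DMSO to ACBI-1, and by -13.7 points when kept regions were weighted to the DMSO widths of the lost ones. For each the exact permutation test gave p = 0.00926, with an adjusted p of 0.0111 and the same sign in 12 of 12 pairs. The width-matched value was -22.9 in MOLT4 at 24 h, and in DND41 it was -6.80 at 3 h and -11.3 at 24 h. With lists of equal length within each line and time, the matched value was -14.1 points (exact permutation p = 0.00926). The size depended on the 3 h libraries that set the classes. Without DMSO replicate 2 the difference was -9.70 points unmatched and -6.07 matched (exact permutation p = 0.00926 and 0.0185), and without DMSO replicate 1 it was -12.4 and -7.42 (exact permutation p = 0.00926 for both). Without ACBI-1 replicate 1 it was -16.7 and -9.75, and without ACBI-1 replicate 2 it was -17.5 and -10.6 (exact permutation p = 0.00926 for all). Width matching did not make the classes alike without the drug. With all 3 h libraries, lost minus kept at matched width was already -30.6 points in the DMSO libraries, against -44.2 in the ACBI-1 libraries.

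Regions with a peak in 1 of the 2 ACBI-1 libraries were also found less often with ACBI-1, with a peak at 62.8% ± 12.3 of them in the DMSO libraries and at 32.1% ± 4.66 in the ACBI-1 libraries (SD, n = 6 per arm), a difference of -30.7 points (exact permutation p = 0.00926, adjusted p = 0.0111).

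The width of a kept region at 3 h also went with its presence elsewhere. Narrowed regions, those narrower in both ACBI-1 libraries, had a peak in 85.8% of cases with DMSO and 69.9% with ACBI-1. Widened regions had 88.1% and 82.1%. Matched for DMSO width, the arms differed by -16.8 points more at narrowed than at widened regions (exact permutation p = 0.00926, adjusted p = 0.0111, 12 of 12 pairs). The contrast was clearest in MOLT4 at 24 h. There the DMSO libraries held 93.7% and 94.0% of widened regions and 94.2% and 94.8% of width-matched narrowed regions, whereas the ACBI-1 libraries held 90% and 88.7% against 62.1% and 60.4%. The matched difference between arms was -28.7 points in MOLT4 at 24 h, and in DND41 it was -6.74 at 3 h and -14.9 at 24 h. In DND41 the classes differed without ACBI-1 too: narrowed minus widened at matched width was -9.77 to -12.8 points in the DMSO libraries. With lists of equal length throughout, the matched difference between arms was -12.3 points (exact permutation p = 0.00926).

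**Figure D5:**
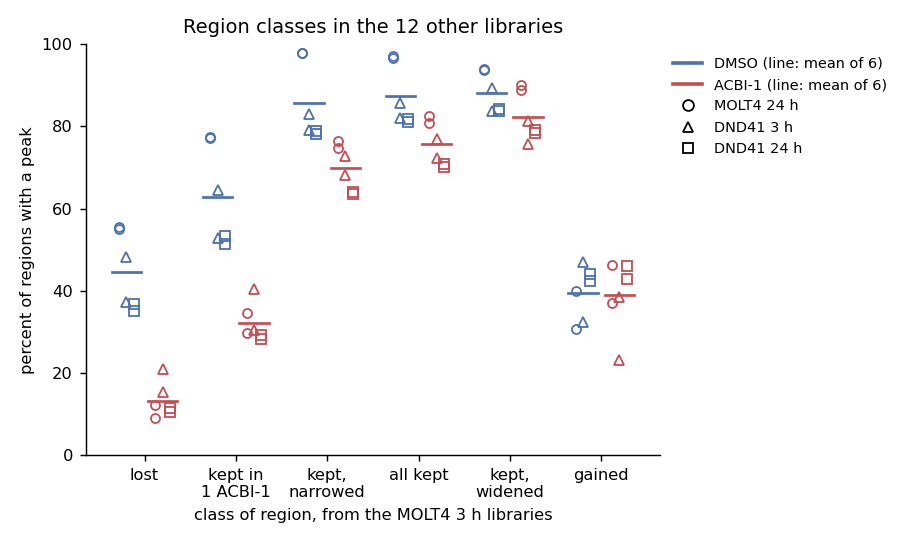
Percent of the regions of each class with a peak (vertical axis) in each of the 12 libraries that did not set the classes; points are libraries, marked by line and time, and lines are means of 6. Lost regions lie at 35.0% or more in the DMSO libraries and at 21.1% or less in the ACBI-1 libraries, while the arms of the gained class overlap.

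The contrasts were larger in MOLT4 than in DND41 at 24 h, but the difference between lines did not pass the test. The classes were set in MOLT4, so the lines did not start alike. With DMSO at 24 h, MOLT4 held 55.4% and 54.9% of the lost regions and DND41 36.8% and 35.0%. DND41 thus had less room for a fall, and the part of this in the line difference was not tested. For lost regions the MOLT4 effect minus the DND41 effect was -19.6 points (exact permutation p = 0.167). For lost minus kept at matched width the line difference was -11.5 points, and for narrowed minus widened -13.8 points. The exact permutation p was 0.0556 for both, which is the smallest that 36 exchanges can give. Adjusted over the comparisons between lines alone, this exact permutation p was 0.0741.

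Gained regions did not show a difference in the full lists of the other libraries. They had a peak in 39.3% ± 6.54 of cases with DMSO, and 39.0% ± 8.63 under ACBI-1 (SD, n = 6 per arm), a difference of -0.333 points (exact permutation p = 0.944, adjusted p = 0.944, lower in 5 of 12 pairs). In MOLT4 at 24 h the shares were 40.0% and 30.6% with DMSO and 46.3% and 37.1% with ACBI-1, and the arms overlapped. The gained minus kept difference moved by 11.4 points (exact permutation p = 0.0278, adjusted p = 0.0303). In the mean this came from the -11.7 points of the kept class. By line and time the gained share itself moved by 6.43 points in MOLT4 at 24 h, and in DND41 by -8.71 at 3 h and 1.29 at 24 h. The move of gained minus kept was 21.6 points in MOLT4 at 24 h, and in DND41 it was 0.420 at 3 h and 12.2 at 24 h.

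This result turned on list length. With lists of equal length within each line and time, where 1214 regions were gained, the share was 35.1% ± 7.50 with DMSO, and 47.6% ± 4.80 under ACBI-1 (SD, n = 6 per arm), a difference of 12.49 points, higher with ACBI-1 in 12 of 12 pairs (exact permutation p = 0.00926). With the MOLT4 3 h lists alone cut to equal length, the difference was -9.20 points (exact permutation p = 0.00926). There the lists of the 12 other libraries were left uncut. Regions counted as gained in that setting can include sites whose narrow DMSO peaks the cut took out. Longer DMSO lists elsewhere can still hold such sites, so the negative sign may be partly built in. No direction for gained regions can thus be read from these settings. Lost regions were lower with ACBI-1 both in the full lists and with all lists of equal length, where the difference was -25.2 points.

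Most gained regions had a peak in a DMSO list of another line or time, but 82 (23.4%) had none. The share with none was 15.7% for lost and 0.280% for kept regions. A peak in at least 1 other DMSO library was found at 268 of the 350 (76.6%), and 49 (14.0%) had no peak in any other library. None had a peak in all 6 other ACBI-1 libraries and no DMSO library. The numbers with more, fewer and equally many ACBI-1 as DMSO peaks among the other 12 libraries were 114, 119 and 117. Among lost regions the same counts were one-sided, with fewer ACBI-1 than DMSO peaks at 6000 (76.5%) and more at 296 (3.77%), while 1110 (14.1%) had no peak in any other library.

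The broadest gained region, chr6:56435498-56435998, had ACBI-1 peaks of 477 and 483 bp and no DMSO peak at 3 h. At 24 h in MOLT4 it had a peak of 183 bp in 1 ACBI-1 library only, but all 8 DND41 libraries had a peak there, of 352 to 470 bp, in both arms. The region at chr1:228362208-228362717, with 498 and 375 bp at 3 h, had peaks of 1302 and 1007 bp with DMSO and 1234 and 476 bp with ACBI-1 at 24 h in MOLT4. The region at chr7:142729008-142729612, with 285 and 468 bp, had no peak in any of the other 12 libraries. Over the 10 broadest gained regions, the MOLT4 libraries of 24 h held 13 of 20 possible peaks with DMSO and 11 with ACBI-1, and the DND41 libraries held 22 and 18 of 40.

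The lost share also varied with the number of other DMSO libraries that held the region. Of regions in both MOLT4 3 h DMSO libraries that no other DMSO library of the series held, 80.6% of 1525 were lost. Of those that all 6 other DMSO libraries held, 5.58% of 18601 were lost, although these were also broader, with a median of 552 bp against 203 bp. Within the narrow width class the shares were 83.4% and 24.5%, at median widths of 196 and 247 bp, and within the middle class 60.2% and 6.62%, at 341 and 411 bp. The classes thus narrowed the width gap without removing it.

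Regions without a DND41 DMSO peak had a higher lost share than regions that DND41 also held, which is a description, with no test. Of regions in all 4 MOLT4 DMSO libraries and in no DND41 DMSO library, 1228 of 4602 (26.7%) were lost, against 1038 of 18601 (5.58%) for regions in all 4 DND41 DMSO libraries as well. In the narrow, middle and broad classes the lost shares were 52.5%, 19.7% and 2.38% for the former and 24.5%, 6.62% and 0.322% for the latter. The median DMSO widths within these classes were 239, 392 and 658 bp for the former and 247, 411 and 744 bp for the latter, so width was not fully matched. Each ACBI-1 library showed this order in each class. In the middle class, for example, ACBI-1 replicate 1 lacked a peak at 35.8% against 15.9%, and replicate 2 at 29.4% against 11.5%. Peak heights were not analysed here.

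Where such regions were kept, they were also narrowed more. The 2336 kept regions without a DND41 DMSO peak had median widths of 464 and 476 bp with DMSO and 352 and 399 bp with ACBI-1, a median log2 ratio of -0.26, and 47.0% were narrower in both ACBI-1 libraries. The 15871 kept regions that all 6 other DMSO libraries held had widths of 597 and 614 bp against 525 and 579 bp, a median log2 ratio of -0.12, with 36.3% narrower. At like DMSO width the ratios were -0.29 and -0.15 for 350 to 414 bp, and -0.28 and -0.11 for 544 to 620 bp. For 804 to 966 bp they were -0.27 and -0.13, with 48.4% and 43.4% narrower.

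The narrowing at 3 h in MOLT4 was close in size to the mean change in the other groups where the same sites could be compared. In the 12030 regions with a peak in all 16 libraries, the log2 ratio of median widths was -0.11 in MOLT4 at 3 h, from 670 and 682 bp with DMSO to 597 and 656 bp with ACBI-1. The 24 h groups gave -0.15 (MOLT4) and -0.16 (DND41), each without overlap of the arms. The 3 h DND41 libraries gave -0.09, but their arms overlapped. Their median widths were 690 and 580 bp with DMSO and 545 and 648 bp with ACBI-1 (exact permutation p = 0.667). Narrowing of these shared sites was thus not shown for that group. The difference from DND41 at 3 h was -0.02 (exact permutation p = 1.0) and that from MOLT4 at 24 h was 0.04 (exact permutation p = 0.889), in a test whose smallest p is 0.0556. The peak names of the 3 h and 24 h libraries carry different tags of unstated meaning, so time and whatever the tag marks cannot be told apart.

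The peak number of MOLT4 at 3 h was also not shown to differ in its response from the other groups. The log2 ratio of -0.53 stood beside -0.57 in DND41 at 3 h, a difference of 0.03 (exact permutation p = 0.889), and beside -0.34 in MOLT4 at 24 h, a difference of -0.20 (exact permutation p = 0.222).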

How the data were processed

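The 16 deposited files are peak lists, 1 per library, with 4 columns giving chromosome, start, end and name; the deposited values used were these positions (bp). Per the submitters' processing notes, the tools were Bowtie2, Picard, SAMtools and MACS2 2.1.1.2016030 with hg19; roles, settings and pooling are not given in the sources used here. Depth is unknown, so no counting interval is given.

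Peaks sharing 1 base were merged with Python 3.11.15, numpy 2.4.6 and pandas 2.3.3, and width is the summed peak length of a library in a region. Tests are two-sided exact permutation tests over libraries, with Benjamini-Hochberg adjustment over the 12 occupancy tests. The comparisons between lines were adjusted as a family of their own. Code was checked on simulated lists. The members and lists were chosen with earlier results of these data known. Named regions are the 10 lost and 10 gained with the highest width percentile, the 5 largest falls and rises in width among non-overlapping kept regions, and the 8 groups with most lost regions, ties going to the shortest span (a rule chosen after seeing the data); only some are printed. Alternatives were other list lengths, minimum widths and joining rules, a replicate block and leaving out libraries. The gene tables at hand are on another build, so genes, promoters and motifs were not analysed here.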

Additional observations from a re-analysis of the deposited data

Results flagged for a closer look

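The median peak width of the list differed in direction between MOLT4 at 3 h and MOLT4 at 24 h. The log2 ratio of ACBI-1 to DMSO was 0.14 at 3 h and -0.20 at 24 h, and at each time the arms did not overlap. At 24 h the medians were 443 and 427 bp with DMSO and 357 and 399 bp with ACBI-1. The difference of 0.34 did not pass the test (exact permutation p = 0.278, 36 exchanges). In DND41 at 3 h the ratio was 0.18.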

How the results depend on the processing

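Of 194 alternative values over 15 results, 165 were counted as unchanged. That label allows some change in size. For occupancy differences that did not pass 0.05 in either setting it also allows a change of sign. The gained occupancy difference, -0.333 points with all libraries, lay between -4.21 and 2.24 points when 1 library was left out. Equal list length gave a median list width of -0.30 (log2), 2206 lost and 1214 gained regions, a narrow minus broad lost share of 21.9 points, a chromosome 19 difference of -6.11 points and a gained occupancy difference of -9.20 points (exact permutation p = 0.00926); with all 16 lists equalised, an alternative chosen after seeing the data, the last was 12.49 points. The narrow minus broad share was 45.4 with a common minimum width of 150 bp, 45.2 for regions with a peak in another library and 26.2 by 24 h width (chosen after seeing the data); the chromosome 19 difference was -11.9 for regions with a peak in another library. Leaving out each library gave 10154 to 15736 lost, 709 to 3496 gained and 21753 to 24880 kept regions, 60.9 to 67.0 points for narrow minus broad, -15.5 to -21.3 points for chromosome 19 and -5.18 to 0.932 points for many minus no neighbours (-1.93 with all libraries; the sign turned without ACBI-1 replicate 2). Groups of at least 3 lost regions numbered 3 at 5 kb and 88 at 25 kb. Fewer libraries or peaks enter these settings by construction, and the cut to equal length takes out the narrowest peaks, mostly from DMSO lists. For the -9.20 points the lists of the 12 other libraries were left uncut. Other causes were not tested. Same-numbered replicates did not deviate together (correlation -0.0013 for presence and -0.0055 for width), so the numbers were not taken as pairing. A replicate block left the log2 values of peak number (-0.53), covered bases (-0.45), median width (0.14) and kept width (-0.13) as they were, and its exact permutation test gave p = 0.50, the least it can reach. The block gave p = 0.0312 (exact permutation) for lost minus kept (-19.5), its matched value (-13.7) and narrowed minus widened (-16.8), and p = 1.0 for gained (-0.333). Motif and promoter settings were not run, for want of an hg19 genome. Depth is unknown, so an absent peak shows only that none was listed.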
